A study of Mus musculus with 12 samples.

Results

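The control tumours of this mouse study are 3 RNA-seq libraries out of 12, and they were taken by their labels, which name a control group with replicates 1 to 3. A control mouse carried a subcutaneous tumour of colorectal cancer and received neither chronic stress nor treatment. The other libraries, 3 in each of 3 groups, came from tumours under chronic stress alone or with a low (XCHT-L) or high (XCHT-H) dose of Xiaochaihu decoction, a herbal mixture, and no comparison with them was made here. The labels give no tumour cell line, mouse strain, sex or age for the control group, and they do not say whether a library is 1 animal or a pool, so the spread among the 3 libraries may be biological or technical.

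A tumour grown under the skin is a mixture. Cancer cells share the nodule with fibroblasts that lay down collagen, with blood vessels, with macrophages and lymphocytes of the host, and with traces of skin, fat and muscle from the site. Colorectal carcinoma arises from the gut epithelium, whose cells are held together by E-cadherin (Cdh1) and EpCAM, are filled with keratins 8, 18 and 19 and are specified by transcription factors of the Cdx and Hnf4 families. Cancer cells that lose this epithelial programme often take up vimentin and transcription factors of the Snai, Twist and Zeb families, which fibroblasts also express. In RNA from bulk tissue, fewer cells of a type and less RNA per cell cannot be told apart.

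The control libraries were alike in depth, with total estimated counts of 16961047, 17326502 and 16734741 in replicates 1, 2 and 3. Of the 17875 genes in the deposited tables, 15618, 15488 and 15550 had a value above 0. Levels are given in TPM, transcript abundances scaled for gene length and library size, and the values of replicates 1, 2 and 3 are given in that order. CPM are counts scaled to library size with edgeR's TMM factors, and not to gene length. Pearson's r of log2 CPM was taken across the 12159 genes kept by a filter on low counts and low TPM. It was 0.993 for replicates 1 and 2, 0.993 for 1 and 3 and 0.991 for 2 and 3, where genes are not independent replicates. The common biological coefficient of variation, edgeR's estimate of the spread between libraries beyond counting error, was 8.05%. No pair of libraries agreed within counting noise. The chi-square per degree of freedom averaged 6.34, 6.88 and 9.16 for these pairs, and its median over genes was 1.40, 1.49 and 1.81. Counting alone gives a mean of about 1 and a median below that. The medians too were thus above counting noise, and the excess was not confined to a few genes. A gene is said to vary 2-fold where its highest library was at least 2 times its lowest on CPM with a prior count of 2, and where the log2 gap exceeded 2 counting standard errors. These are descriptions of 3 libraries, with no test, since the control group has no contrast. Replicate 3 leaned to short transcripts. The Spearman correlation across 12047 genes between a library's log2 deviation and gene length was 0.12, 0.14 and -0.23, and the median deviation of 81 ribosomal protein genes was -0.04, -0.07 and 0.12 on the log2 scale. The part of this lean in the results on replicate 3 below was not tested.

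The most abundant transcripts were those of the translation machinery. Eef1a1 (chr9:78478453-78481724 on GRCm38.p6), the factor that brings aminoacyl-tRNA to the ribosome, led with 11270.3, 10945.5 and 11016.8 TPM, a mean of 11078 ± 171 (SD, n = 3). Ribosomal protein genes took 18 of the first 25 places and 60 of the first 100, and the 83 of them in the table held 21.3% ± 0.352 of all TPM (SD, n = 3). Among the 18 were Rpl23a (place 2, mean 7913 TPM), Rps2, Rps27, Rpl35, Rps23, Rpl10, Rpl12, Rpl28, Rps12, Rps18, Rpl38, Rps15, Rps19, Rps26, Rpl41, Rps14 and Rps21, the last at a mean of 3806 TPM. Many ribosomal protein genes have near-identical pseudogene copies that can share their reads, and 19 of the 83 had counts that were not whole numbers. Rps6-ps4, annotated as a transcribed pseudogene, held place 15 at 4148, 4309 and 4238 TPM, also with counts that were not whole, so its value cannot be separated from that of its parent gene.

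Outside the ribosomal proteins, Eef1a1 and Rps6-ps4, the first 25 places were held by S100a4, Tpt1, Hsp90ab1, Ppia and B2m. S100a4 (chr3:90603770-90606045), a calcium-binding protein known from motile mesenchymal cells and metastasis, took place 3 at 6825, 7744 and 7043 TPM. Tpt1, the translationally controlled tumour protein, stood at 6954, 6774 and 7339 TPM. Hsp90ab1, a cytosolic chaperone, stood at 4142, 4147 and 4292 TPM, and Ppia, a prolyl isomerase, at 4083, 4211 and 4098 TPM. B2m, the light chain of MHC class I, stood at 3556, 3645 and 4459 TPM, with replicate 3 above the other two. The S100 genes as a family, a list made after the values were seen, summed to 15370, 16533 and 16246 TPM, nearly all of it from S100a4, S100a6, S100a11 and S100a10.

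**Figure D1:**
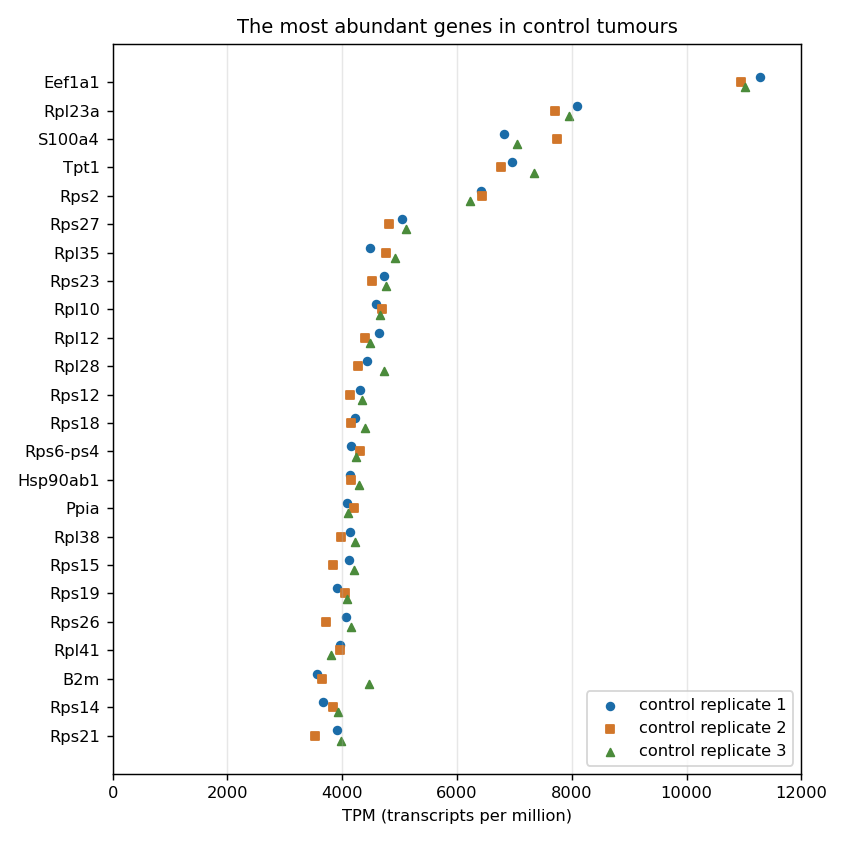
Genes among the 25 with the highest mean TPM in the control tumours, from the top down. The x axis is TPM on a linear scale and each point is 1 library (circle, replicate 1; square, replicate 2; triangle, replicate 3). Eef1a1 stands alone at 10945.5 TPM or more, and in B2m the triangle of replicate 3 (4459 TPM) lies apart from the other points (3556 and 3645 TPM).

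Expression was concentrated in few genes. The 10 most abundant held 6.33% ± 0.0356 of all TPM, the 100 most abundant 32.1% ± 0.454 and the 1000 most abundant 63.4% ± 0.485 (SD, n = 3). At the other end, 1295 genes had a value of 0 in all 3 libraries. A mean of at least 1 TPM, used below as the mark of a measured transcript, was reached by 12352 genes, or 69.1% of the table, and 135 genes reached 1000 TPM.

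The epithelial identity that the label colorectal cancer implies was nearly missing from the RNA. Of 17 colon epithelial genes with a row, 2 reached a mean of 1 TPM, against 69.1% of all genes, and the median of the 17 was 0.04 TPM. The higher of these was Lgals4, a galectin of the gut lining, at 10.4, 12.7 and 13.4 TPM. Vil1, the villin of the brush border, stood at 0.11, 0.26 and 0.11 TPM. Muc2, the main mucin of goblet cells, stood at 0.17, 0.1 and 0.16 TPM, and Krt20, a keratin of differentiated colonocytes, at 0.06, 0.06 and 0 TPM. Lgr5, the receptor that marks crypt stem cells, stood at 0.02, 0 and 0 TPM. Cdx1, Fabp1, Car1 and Guca2a had no count in any library, and a count of 0 allows up to 3 counts over the group, or 0.0588 CPM. In all, 9 of the 17 were under 0.1 TPM in all 3 libraries: these 4 with Krt20, Lgr5, Aqp8, Cdhr5 and Olfm4. Cdx2, Hnf4a, Slc26a3 and Tff3 were not analysed here.

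General epithelial genes were as low. Of 20 genes, 1 reached a mean of 1 TPM: Cdh1, E-cadherin, at 3.44, 4.68 and 3.5 TPM. Epcam, the adhesion molecule used to sort carcinoma cells, stood at 0.18, 0.59 and 0.18 TPM, and Krt19 at 0.49, 0.64 and 0.51 TPM. Krt18 was seen in replicate 1 alone, at 0.1 TPM, and its partner Krt8 had no count in any library, as had Esrp1, a splicing factor of epithelial cells, and Cldn4, a tight junction claudin. The 20 genes together summed to 7.08 ± 1.09 TPM (SD, n = 3), with the highest library at 8.33 and the lowest at 6.36 TPM.

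All 13 mesenchymal state genes were above 1 TPM, against 69.1% of all genes, with a median of 52.9 TPM and a sum of 13349 ± 704 TPM (SD, n = 3). Vim, the intermediate filament of mesenchymal cells, stood at 3627, 3825 and 3508 TPM, which was 943 times the mean of Cdh1 and 817 to 1054 times Cdh1 within each library. Sparc, a secreted collagen-binding protein, stood at 1666, 1818 and 1701 TPM, and Fn1, fibronectin, at 222, 242 and 218 TPM. The transcription factors that repress E-cadherin were all measured: Twist2 at 51.9, 52.3 and 54.4 TPM, Twist1 at 52.2, 49.2 and 52.3 TPM, Zeb1 at 40.5, 42.3 and 32.9 TPM, Snai2 at 33.2, 25.4 and 38.1 TPM, Snai1 at 29.2, 30.4 and 30.8 TPM and Zeb2 at 28.1, 27.6 and 24.9 TPM. The 3 libraries lay about as close together for these genes as for most kept genes. None of the 13 differed 2-fold between its highest and lowest library, where 1.46% of all kept genes did. Their median ratio of highest to lowest CPM was 1.10, against 1.13 over all kept genes. The transcript profile of the control tumours therefore goes against an epithelial identity, and which cells in the tissue carry the mesenchymal transcripts was not tested.

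**Figure D2:**
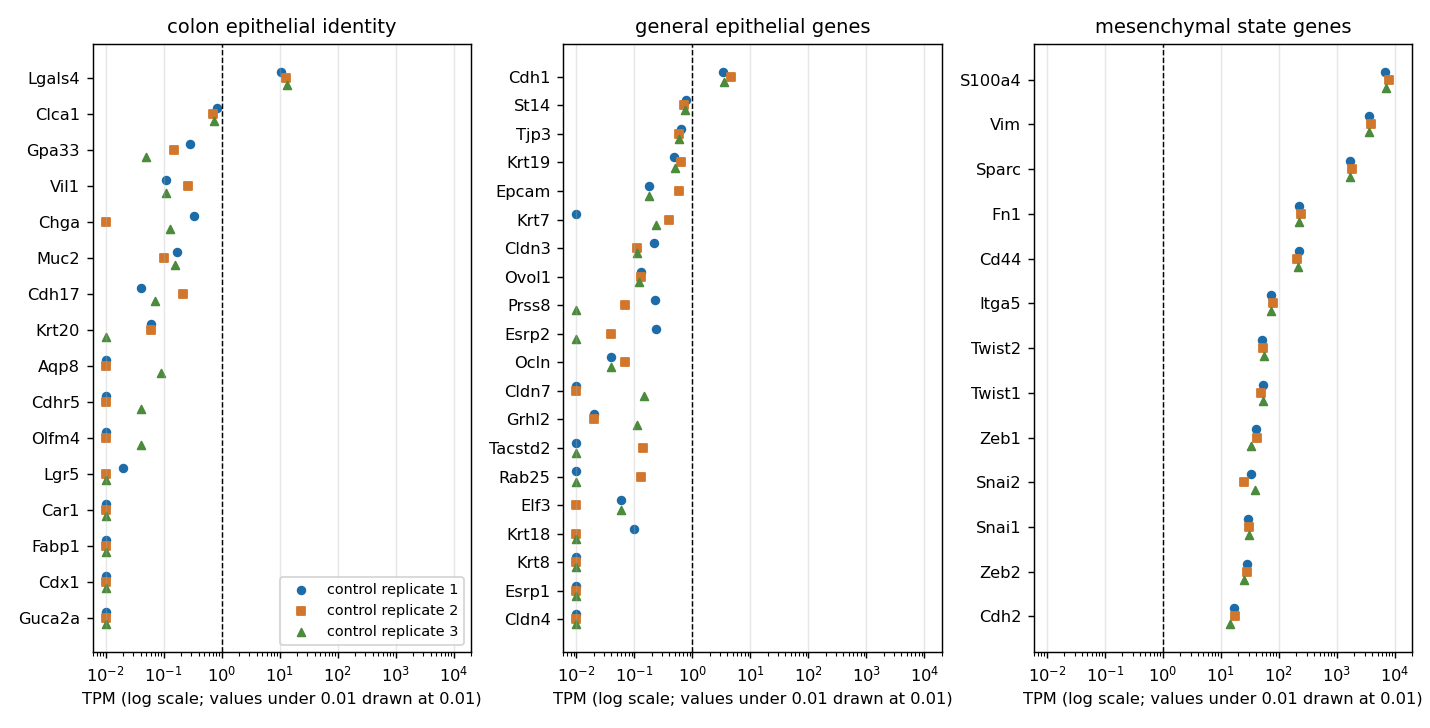
Levels of colon epithelial, general epithelial and mesenchymal state genes in each control library. The x axis is TPM on a log scale, values under 0.01 are drawn at 0.01, the dashed line marks 1 TPM and each point is 1 library. Of the epithelial genes drawn, Lgals4 and Cdh1 lie to the right of the line, while all 13 mesenchymal genes do.

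A single keratin was abundant. Krt14 (chr11:100203162-100207510), a keratin of basal skin cells, stood at 474, 413 and 452 TPM, 115 times the mean of Cdh1. Its usual partner Krt5 had no count in any library, nor had Krtdap or Dsg3, and the basal transcription factor Trp63 stood at 0.3, 0.15 and 0.07 TPM. Of 10 skin keratinocyte genes, the others above 1 TPM were Sbsn at 9.59, 8.12 and 8.75 TPM and Krt10 at 5.38, 3.57 and 5.88 TPM. Krt1, Flg and Lor were under 0.1 TPM in all 3 libraries.

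Genes of the Wnt pathway, which is switched on in most colorectal carcinomas through loss of Apc, were split. Ccnd1, cyclin D1, stood at 562, 562 and 541 TPM, Myc at 121, 94.9 and 125 TPM, Sox9, a factor of crypt cells, at 78.7, 89.9 and 66.8 TPM, and Apcdd1, a Wnt inhibitor, at 51.3, 47.6 and 52.8 TPM. Tcf7, a transcription factor of the pathway, stood at 24.1, 24.2 and 24.9 TPM. The feedback targets were split too: Znrf3, a ligase that removes Wnt receptors, stood at 3.37, 3.35 and 3.39 TPM, its paralogue Rnf43 at 0.09, 0.28 and 0.16 TPM and Axin2 at 0.21, 0.58 and 0.67 TPM, while Nkd1 had no count and Ascl2 was listed in replicate 3 alone, at 0.16 TPM. Together 6 of 12 genes of this list reached 1 TPM, against 69.1% of all genes.

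Of 22 genes known as colorectal cancer drivers or mismatch repair genes, 19 reached 1 TPM, against 69.1% of all genes. Trp53 led at 465, 471 and 517 TPM, followed by Ctnnb1, beta-catenin, at 445, 473 and 458 TPM, Myc and the mismatch repair gene Msh6 at 92.9, 95.3 and 85.3 TPM. Nras stood at 79.4, 78.5 and 76.9 TPM and Apc at 11.8, 14 and 11.4 TPM. The 3 under 1 TPM were the receptor Egfr, at 0.66, 0.87 and 0.71 TPM, and the cell cycle inhibitors Cdkn2b, at 0.48, 0.56 and 0.28 TPM, and Cdkn2a, at 0.37, 0.32 and 0.16 TPM. Cdkn1a, the inhibitor that p53 induces, stood at 73.5, 66.4 and 78.4 TPM. Mutations were not read from these data.

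The tumours carried a full set of division transcripts, and these, like most kept genes, differed little among the 3 libraries. All 21 genes of DNA replication and mitosis were above 1 TPM, against 69.1% of all genes, and summed to 3101 ± 82.1 TPM (SD, n = 3). Pcna, the replication clamp, stood at 532, 509.8 and 549 TPM. Top2a, the topoisomerase of dividing cells, stood at 400.4, 391 and 353 TPM, Mcm6, part of the replicative helicase, at 271, 288 and 282 TPM, and Birc5, survivin, at 205, 222 and 190.4 TPM. Mki67, the proliferation marker Ki-67, stood at 141, 161 and 129.8 TPM. None of the 21 varied 2-fold, where 1.46% of all kept genes did, and the widest ratio of highest to lowest CPM was 1.22. Their median ratio was 1.09, against 1.13 over all kept genes.

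Enzymes of glycolysis were among the most abundant transcripts outside translation. Gapdh stood at 3527, 3916 and 3736 TPM, Eno1 at 2322, 2600.1 and 2499 TPM, Pkm at 2204, 2459 and 2416 TPM and Ldha, which makes lactate, at 1432, 1687 and 1688 TPM. All 20 genes of the glycolysis and hypoxia list were above 1 TPM, against 69.1% of all genes. Replicate 1 was the lowest library for 15 of the 20, where it was the lowest for 31.9% of all kept genes. Replicate 2 was the highest for 12 of the 20, against 34.4% of all kept genes. The 2 members that varied 2-fold were Car9, a carbonic anhydrase induced by low oxygen, at 15.2, 32.1 and 15.3 TPM, and Adm, the vessel peptide adrenomedullin, at 3.16, 4.88 and 1.6 TPM. Both were highest in replicate 2, and by the same measure 1.46% of all kept genes varied. Ankrd37 and Egln3, further hypoxia targets, were also highest there, at 44.7 TPM against 30.5 and 20.6, and at 56.3 TPM against 40.5 and 31.9.

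The study applied chronic stress, and the unstressed tumours give the baseline of the receptors for stress hormones. Nr3c1, the glucocorticoid receptor, stood at 32.7, 31.3 and 31 TPM. Hsd11b1, the enzyme that makes active corticosterone, stood at 3.41, 3.55 and 2.57 TPM, and Nr3c2, the mineralocorticoid receptor, at 1.22, 1.15 and 1.09 TPM. Of the adrenergic receptors, Adra2a stood at 0.68, 1.06 and 0.55 TPM and Adrb1 at 0.23, 0.34 and 0.11 TPM, Adrb3 was listed in replicate 1 alone at 0.04 TPM, and Adra1b and Adra2c had no count. In all, 4 of the 13 genes of the list reached 1 TPM, against 69.1% of all genes, and 7 were under 0.1 TPM in all 3 libraries.

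Collagen and matrix transcripts made up the largest stromal sum. All 16 fibroblast genes were above 1 TPM, against 69.1% of all genes, and they summed to 3981, 4239.8 and 3216 TPM. Col3a1 stood at 2040.1, 2286 and 1643 TPM, Col6a1 at 805, 775 and 638 TPM, Col1a2 at 303, 352 and 296 TPM and Dcn, the proteoglycan decorin, at 277, 274 and 151 TPM. Replicate 3 was the lowest library for 9 of the 16, against 34% of all kept genes. The fibrillar collagens were unequal. Col1a1, which joins Col1a2 in type I collagen as the more abundant chain, stood at 85.9, 100.2 and 74.8 TPM, so that Col3a1 was 22 to 23.8 times and Col1a2 3.51 to 3.95 times its level within a library. Fap, the protease of activated fibroblasts, was low at 2.03, 1.08 and 1.84 TPM. Of the 16, Dpt (16.5, 7.73 and 12.8 TPM) and Lum (3.98, 6.58 and 2.69 TPM), both small matrix proteins, varied 2-fold, where 1.46% of all kept genes did. Among matrix proteases and their inhibitors, Timp2 stood at 706, 672 and 646 TPM, Mmp2, gelatinase A, at 572, 689 and 604 TPM, Timp1 at 211, 186 and 215 TPM and Timp3 at 148, 124 and 199 TPM. Mmp12, the elastase of macrophages, stood at 103, 64.7 and 87.9 TPM.

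Blood vessel transcripts were much less abundant and differed among the libraries in a common direction. The 15 endothelial genes summed to 144, 131 and 79.1 TPM. Replicate 3 was the lowest for 13 of the 13 that passed the filter, where it was the lowest for 34% of all kept genes, and replicate 1 was the highest for 12 of the 13, against 28.5%. Against the mean of the other libraries, replicate 3 had a median log2 deviation of -0.84 over the 13, and 0.01 over all kept genes. Pecam1, the junction molecule CD31, stood at 20.3, 16.5 and 9.07 TPM, and Kdr, the VEGF receptor 2, at 6.76, 4.76 and 2.06 TPM. Both varied 2-fold, where 1.46% of all kept genes did. Plvap, a protein of endothelial fenestrae, stood at 23.6, 24.9 and 13.5 TPM, Egfl7 at 15.9, 15.1 and 11.9 TPM and Cdh5, VE-cadherin, at 13.8, 11.5 and 7.59 TPM. The ligand Vegfa did not follow, at 240.5, 266 and 251 TPM. Of the lymphatic list, Pdpn, podoplanin, was abundant at 118, 108 and 120.4 TPM. Prox1, the factor that defines lymphatic vessels, was under 0.1 TPM in all 3 libraries, Lyve1 stood at 0.5, 0.72 and 0.05 TPM and Reln was under 0.1 TPM. Pericyte and smooth muscle genes summed to 126 ± 20.5 TPM (SD, n = 3), led by Cspg4, the NG2 proteoglycan, at 59.6, 69.3 and 51 TPM, Acta2, smooth muscle actin, at 17.4, 19.6 and 17.3 TPM, Mcam at 21.1, 20.2 and 12.3 TPM and Tagln at 11.5, 13.9 and 10.8 TPM. Replicate 3 was the lowest for 6 of the 8 that passed the filter.

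The 5 general leukocyte genes summed to 437 ± 17 TPM (SD, n = 3), with Cd52, a surface glycoprotein of white cells, at 223, 236 and 221 TPM and Ptprc, CD45, at 25.5, 26 and 24 TPM. Among the leukocyte lists, macrophages had the largest sum. The 20 macrophage genes summed to 4134, 3686 and 3591 TPM, and 18 of them reached 1 TPM, against 69.1% of all genes. Lyz2, lysozyme, stood at 1341, 1183 and 1169.7 TPM, Apoe, the lipid carrier, at 845, 639.9 and 637 TPM, and the complement genes C1qa and C1qb at 369, 372 and 331 TPM and at 375, 367 and 323 TPM. Arg1, arginase, stood at 251, 151 and 170.3 TPM, with replicate 1 above the others. Csf1r, the receptor for macrophage growth factor, stood at 52.1, 57.9 and 43.6 TPM, which was 11.4 to 16.4 times the level of the T cell gene Cd3e within a library. Mrc1, the mannose receptor, was the 1 member that varied 2-fold, at 33.6, 29 and 14.8 TPM, where 1.46% of all kept genes varied. Cd163 and Marco, markers of some resident macrophages, were low, at 0.45, 0.35 and 0.08 TPM and at 0.06, 0.13 and 0 TPM. Ccr2, the chemokine receptor of monocytes, stood at 32.8, 33.8 and 24 TPM.

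Granulocyte transcripts were scarce. Ly6g, Retnlg, Camp and Mpo, which define neutrophils and their precursors, had no count in any library. S100a8, a neutrophil calcium-binding protein, stood at 1.75, 0.87 and 5.82 TPM, and its partner S100a9 was listed in replicate 3 alone, at 1.26 TPM. The neutrophil sum was 5.95, 4.36 and 12.8 TPM. Of the eosinophil list only Ear2 reached a mean of 1 TPM, at 7.58, 5.05 and 0.95 TPM, with Epx and Ccr3 under 0.1 TPM. Mast cell genes summed to 4.06 ± 1.37 TPM (SD, n = 3).

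Lymphocyte transcripts were low, with Cd8a above Cd4 in each library. The 11 T cell genes summed to 58.2, 46.6 and 48.7 TPM, led by Cd3g at 12.9, 13 and 12.8 TPM and Cd8a, the co-receptor of cytotoxic T cells, at 10, 7.07 and 7.64 TPM. Cd4 stood at 1.88, 1.22 and 1.31 TPM, so that Cd8a was 5.33 to 5.83 times Cd4 within a library. Foxp3, the factor of regulatory T cells, stood at 0.36, 0.57 and 0.75 TPM. Cd247, the signalling chain of the T cell receptor, varied 2-fold at 4.97, 1.8 and 2.04 TPM. Among natural killer and cytotoxic genes Gzmb, granzyme B, stood at 18.6, 23.9 and 24 TPM, Nkg7 at 21.2, 17.1 and 15.7 TPM, Prf1, perforin, at 7.1, 9.29 and 7.35 TPM and Klrk1, the receptor NKG2D, at 6.92, 6.78 and 7.86 TPM. None of the 7 B and plasma cell genes reached 1 TPM, against 69.1% of all genes, and Ms4a1, CD20, stood at 0.04 TPM in each library. Dendritic cell genes summed to 37.5 ± 2.52 TPM (SD, n = 3), with Itgax, CD11c, at 17.7, 17 and 16.4 TPM and Zbtb46 at 6.97, 8.4 and 7.32 TPM.

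**Figure D3:**
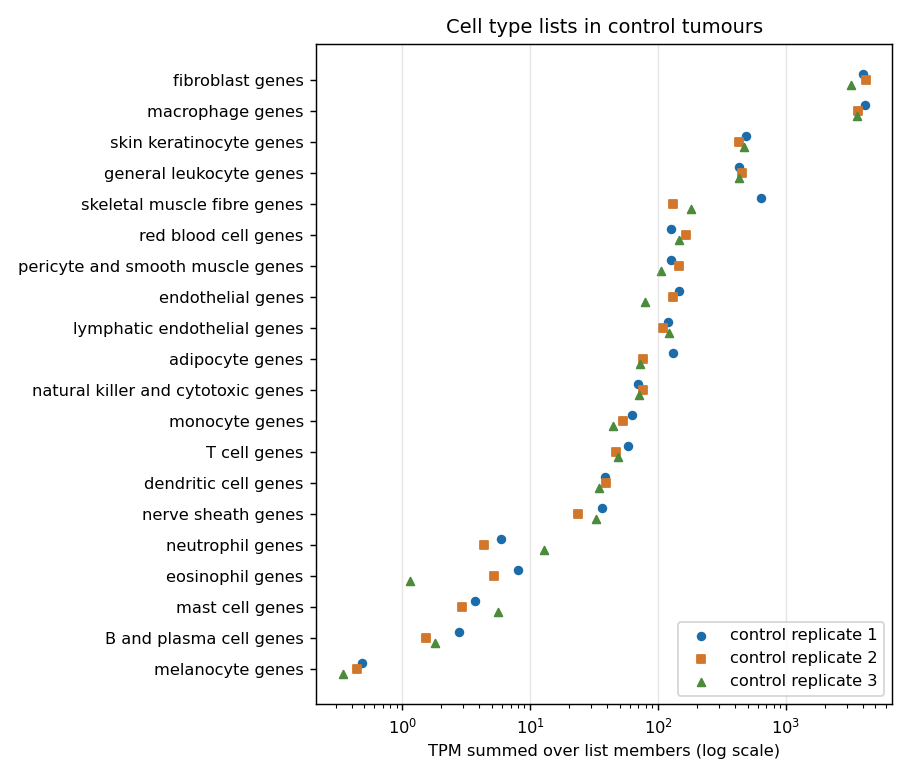
TPM summed over the members of each cell type list in each control library, ordered by the mean. The x axis is a log scale and each point is 1 library. Fibroblast and macrophage sums lie above 3000 TPM in each library, the 15 endothelial genes give 79.1 to 144 TPM, and the muscle list has replicate 1 (638 TPM) far from the other two (130.2 and 182 TPM). Lists differ in length and in how abundant their genes are, so sums are not shares of cells, and the skin sum is nearly all Krt14.

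Antigen presentation was well represented. The 5 MHC class II genes summed to 3170.4 ± 31 TPM (SD, n = 3), with Cd74, the invariant chain, at 1251, 1265 and 1208 TPM, H2-Aa at 884, 846 and 879 TPM, H2-Ab1 at 632, 648 and 620.3 TPM and H2-Eb1 at 416, 411 and 416 TPM. MHC class I genes summed to 9091, 9352 and 11026 TPM, and replicate 3 was the highest library for all 7, where it was the highest for 37.1% of all kept genes. H2-D1 stood at 2552, 2581 and 3019 TPM and H2-K1 at 2366, 2522 and 2855 TPM, 2 near-identical heavy chains whose counts were not whole and can share reads. Tapbp, the chaperone tapasin, stood at 304, 313 and 337 TPM. None of the 7 reached 2-fold, where 1.46% of all kept genes did, and their median log2 deviation in replicate 3 was 0.29.

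All 11 checkpoint genes and 12 of 13 chemokine genes reached a mean of 1 TPM, against 69.1% of all genes. The chemokine Cxcl5 was under 0.1 TPM in all 3 libraries. Cd47, the signal that restrains phagocytes, stood at 122, 125 and 118 TPM, Lgals9 at 106, 113 and 114 TPM, Cd276 at 24.1, 20.4 and 20.8 TPM and Cd274, PD-L1, at 14.1, 12.5 and 16.2 TPM. Its receptor Pdcd1 stood at 4.97, 4.31 and 3.44 TPM, and Pdcd1lg2, PD-L2, varied 2-fold at 1.73, 0.6 and 0.77 TPM. Ccl2, which draws monocytes through Ccr2, was the highest chemokine, at 439.9, 355 and 455 TPM, ahead of Cxcl10 at 142, 118 and 182 TPM, Ccl7 at 117, 82.7 and 101 TPM and Cxcl9 at 89.4, 77.5 and 121 TPM. Ccl8 was high in replicate 1, at 109.6, 45.7 and 43.8 TPM, and Cxcl2, which draws neutrophils, was low there, at 1.73, 6.39 and 3.91 TPM. Both varied 2-fold, where 1.46% of all kept genes did.

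The genes that varied most were sought next. Of the 12159 kept genes 178 varied, or 1.46%. The median ratio of highest to lowest CPM was 1.13 and the 90th percentile 1.40. Just inside the limit stood Gbp4 at 2.002, Cp at 2.013 and Rgcc at 2.021, and just outside it Prrt2 at 1.999, Zfp966 at 1.998 and Cd55 at 1.997. Replicate 3 stood apart for 80 of the 178 (30 high, 50 low), replicate 2 for 56 (24 high, 32 low) and replicate 1 for 42 (34 high, 8 low). The steadiest abundant gene was Hnrnpu, a nuclear RNA-binding protein, at 358, 355 and 347 TPM, followed by Serinc1, Aamp, Birc5 and Polr2h.

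The widest variation was in genes of skeletal muscle. Genes of mature fibres were high in replicate 1, and the list of 21 summed to 638, 130.2 and 182 TPM, or to a mean of 156 TPM without replicate 1 and 317 with it. Acta1, skeletal muscle actin, stood at 97.2, 0.44 and 7.26 TPM. Mylpf, a myosin light chain of fast fibres, stood at 76.7, 3.02 and 10.9 TPM and Tnnt3, fast troponin T, at 64.5, 2.42 and 6.52 TPM. Ckm, the creatine kinase of muscle, stood at 24.8, 0.28 and 1.39 TPM. Replicate 1 was far above the others for each of these, and replicate 2 the lowest. The filter on counts asks for reads in every library and so kept only 4 of the 21, of which Mylpf, Tnnt3 and Tnni2 varied. A filter on the mean count, chosen after seeing the data, let in 13 more, largely through their level in replicate 1, so nothing is read from how many of them varied; of all genes kept that way 1.94% varied. The member that passed the first filter and did not vary was Eno3, a muscle enolase that other tissues also express, at 128, 117 and 132 TPM, which alone held most of the list's sum in replicates 2 and 3. Genes of muscle precursors were low, with Myog at 1.51, 0 and 0.96 TPM, Myf5 at no count and Pax7 under 0.1 TPM. Other genes high in replicate 1 were the muscle genes Tnni2 (45.4, 4.25 and 4.92 TPM), Fhl1 (17.3, 1 and 2.27 TPM), Des (14.3, 1.16 and 2.72 TPM) and Tnni1 (8.83, 2.27 and 2.46 TPM), the acid phosphatase Acpp (8.55, 1.17 and 2.84 TPM) and the small heat shock protein Hspb1 (18.8, 7.23 and 5.03 TPM).

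Genes of other tissues near the graft were mostly low. Fabp4, the fatty acid carrier of fat cells, macrophages and vessels, was higher in replicate 1, at 116, 59.2 and 57 TPM, while the defining fat genes Adipoq, Plin1 and Lep stood between 0 and 0.22 TPM. Lpl, lipoprotein lipase, varied at 7.04, 5.15 and 2.52 TPM. Ngfr, a neurotrophin receptor of nerve sheath cells, varied at 24.6, 9.58 and 20.5 TPM, and the sheath gene Sox10 stood at 0.04, 0.04 and 0.13 TPM. Haemoglobin genes, near-identical copies that can share reads, were measured too, with Hbb-bs at 41.7, 57.7 and 43.9 TPM. The melanocyte gene Dct had no count. The 4 listed genes of the Y chromosome had counts in all 3 libraries, with Eif2s3y at 8.57, 9.41 and 7.93 TPM and Ddx3y at 4.46, 3.88 and 4.11 TPM, and Uty, a histone demethylase, varied 2-fold at 1.53, 0.69 and 0.93 TPM. The labels give no sex for host or tumour.

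A cluster of granzymes set replicate 2 apart. Granzymes are serine proteases that cytotoxic lymphocytes release into their targets, and in the mouse several lie side by side on chromosome 14 next to Gzmb. Gzmc stood at 24.2, 80.3 and 25.8 TPM, Gzmf at 16.6, 50.4 and 9.8 TPM, Gzmg at 16.2, 41.1 and 4.15 TPM, Gzmd at 13.8, 39.7 and 6.84 TPM and Gzme at 6.46, 12.5 and 2.6 TPM. Replicate 2 was the highest for these 5, by 3.30- to 8.91-fold over the lowest library. Of the 6 genes of the cluster that passed the filter, replicate 3 was the highest for the remaining 1. Replicate 2 was the highest for 34.4% of all kept genes, but the 5 were picked with their values known, so this share is no test of them. Gzmb, at 18.6, 23.9 and 24 TPM, did not vary 2-fold, and neither did Prf1 or the T cell genes Cd3g and Cd8a. The T cell gene Cd247 did, at 4.97, 1.8 and 2.04 TPM. Of the 9 T cell genes that passed the filter, replicate 2 was the highest for 0 and the lowest for 5. The shares of all kept genes were 34.4% and 34.1%. The 7 genes of the cluster, a list made after the values were seen, summed to a mean of 139 TPM and of 84.5 TPM without replicate 2. The transcripts of the 5 are alike, at 76.1% to 94.8% identity over 10 pairs and 70.3% to 77.3% with Gzmb, so reads may be divided among them. Counts were whole in all 3 libraries for Gzmc, Gzme, Gzmf and Gzmg, and Gzmd had 249.39 in replicate 2. Sharing of reads was not tested, and the value of a single member is uncertain.

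The 5 promoters are alike too, which is why they are shown. The 120 bases before the start used in the RefSeq promoter table on GRCm38.p6 follow, all on the minus strand and written 5′ to 3′, with the 20 bases common to all 5 in capitals. For Gzmc and Gzmd this start lies inside the span of the gene in RefSeq (chr14:56231397-56241647 and chr14:56129556-56132603), which begins farther upstream.
Gzmc (chr14:56234658-56234777): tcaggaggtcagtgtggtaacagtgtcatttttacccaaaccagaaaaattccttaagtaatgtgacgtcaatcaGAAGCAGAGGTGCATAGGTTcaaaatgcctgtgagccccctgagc
Gzmd (chr14:56132594-56132713): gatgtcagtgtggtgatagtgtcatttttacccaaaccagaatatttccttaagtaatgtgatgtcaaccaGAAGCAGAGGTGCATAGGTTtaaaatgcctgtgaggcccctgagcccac
Gzme (chr14:56120626-56120745): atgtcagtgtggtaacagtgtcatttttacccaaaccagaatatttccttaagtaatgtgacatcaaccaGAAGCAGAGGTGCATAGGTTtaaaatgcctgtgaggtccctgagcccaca
Gzmf (chr14:56211408-56211527): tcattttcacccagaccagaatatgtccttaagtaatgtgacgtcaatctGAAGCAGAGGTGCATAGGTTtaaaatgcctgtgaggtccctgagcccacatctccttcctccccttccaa
Gzmg (chr14:56159580-56159699): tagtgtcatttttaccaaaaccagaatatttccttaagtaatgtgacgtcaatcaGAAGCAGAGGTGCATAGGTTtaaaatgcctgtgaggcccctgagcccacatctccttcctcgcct
The stretch in capitals, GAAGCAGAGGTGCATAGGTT, was in the promoters of these 5 genes and of no other of the 27025 genes with a promoter in the RefSeq table (0.0185%), searched on both strands from 250 bases before to 50 after the start. Over the bases before the start the 5 were 84.4% to 95.6% identical in pairs. Such likeness is a description of neighbouring copies of a gene and not a site of binding.

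Replicate 2 was also the highest for 8 of 10 immediate early genes, which cells switch on within minutes of a signal or of handling, against 34.4% of all kept genes. Fos, a subunit of the AP-1 factor, stood at 10.8, 33.9 and 13.2 TPM and Fosb at 1.48, 6.41 and 2.07 TPM. Both varied 2-fold, where 1.46% of all kept genes did. The most abundant of the list, Jun, at 215, 207 and 178 TPM, did not follow, while Junb at 88.2, 110.2 and 94.3 TPM and Ier2 at 58.5, 69.8 and 56.8 TPM did. The histone gene H2bc8 (10.2, 34.5 and 11.6 TPM) and the calpain relative Capn6 (6.31, 13.6 and 5.89 TPM) were further genes high in replicate 2; histone transcripts mostly lack poly(A) and are captured in part. Replicate 2 was low for Thbs4, a thrombospondin of tendon and matrix, at 13.1, 3.15 and 21.8 TPM, and for Igfbp5, which binds insulin-like growth factors, at 9.78, 4.4 and 15.9 TPM. Hspa1b, an inducible heat shock protein, was low in replicate 1 at 66, 99.8 and 133 TPM, as was its near-identical neighbour Hspa1a at 8.42, 18.1 and 13.3 TPM, while Hspb1, given above, was high there. Also low in replicate 1 were Lamb3, a laminin chain, at 2.96, 6.67 and 5.6 TPM and Gpha2, a glycoprotein hormone subunit, at 4.5, 10.6 and 5.7 TPM.

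Replicate 3 stood out for genes of the integrated stress response, in which Atf4 answers amino acid shortage or unfolded protein. Chac1, which degrades glutathione, stood at 16.2, 10.3 and 38 TPM, Trib3, a pseudokinase that restrains the response, at 56.7, 36.1 and 100.4 TPM, and Sesn2, an inhibitor of mTORC1, at 7.75, 5.67 and 15.2 TPM. These 3 of 20 targets varied 2-fold, on a list made after the values were seen, where 1.46% of all kept genes varied. Atf4 itself stood at 431, 377 and 547 TPM and Ddit3, the factor CHOP, at 69.3, 75.1 and 124 TPM. Replicate 3 was the highest for 17 of the 20 and replicate 2 the lowest for 16, against 37.1% and 34.1% of all kept genes. As the list was made with the values known, these shares are no test of it. Phgdh, Psat1 and Asns, which make serine and asparagine, differed little between replicates 1 and 3: Asns stood at 159.7, 123 and 159 TPM.

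Among varying genes with at least 5 TPM in the highest library, Chac1 had replicate 3 farthest above the others, and part of its promoter is given (RefSeq, GRCm38.p6, plus strand, 5′ to 3′). Capitals mark a match to TGATGCAA, letters of the composite element that Atf4 and C/EBP proteins recognise, here read on the opposite strand and 193 bases before the start.
Chac1 (chr2:119351023-119351082): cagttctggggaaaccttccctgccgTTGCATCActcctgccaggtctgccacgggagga
The 8 letters were found, on either strand, in 279 of 27025 promoters (1.03%) and in 4 of the 18 listed targets with a promoter in the table, namely Chac1, Vldlr, Slc7a11 and Nupr1. Of these 4, Chac1 alone varied 2-fold, with Vldlr at 18.1, 12.6 and 18.8 TPM and Slc7a11 at 15.8, 17 and 13.9 TPM. The match is a description of letters.

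Listed genes induced by interferon-gamma, the lymphocyte cytokine that raises antigen presentation, ran in a common order. On a list of 24 made after the values were seen, replicate 3 was the highest and replicate 2 the lowest for all 24. This order was found in 20.4% of all kept genes. The median ratio of highest to lowest CPM was 1.64, and 5 of the 24 varied 2-fold, where 1.46% of all kept genes did. Since the values were known when the list was made, these shares are no test of it. Gbp2, a guanylate-binding protein, stood at 314, 277 and 469 TPM, Psmb8, a subunit of the immunoproteasome, at 311, 296 and 359.6 TPM, Irf1, a transcription factor of the response, at 227, 192 and 283 TPM and Igtp, a GTPase of cell-autonomous defence, at 164, 138 and 256 TPM. The 5 were Ido1, the enzyme that breaks down tryptophan, at 9.56, 6.82 and 14.8 TPM, Tgtp1 at 70, 61.9 and 122 TPM, Apol6 at 13.2, 11.3 and 22.5 TPM, Gbp10 at 5.41, 3.89 and 7.99 TPM and Gbp4 at 76.7, 55.2 and 107 TPM. Guanylate-binding proteins and Tgtp1 have near-identical copies. The list of interferon-stimulated genes ran the same way in 10 of 11, with Bst2, tetherin, at 376, 328 and 470 TPM, Isg15 at 104, 96.2 and 110.1 TPM and Oasl2 at 59.8, 57.1 and 66.8 TPM. Of the MHC genes given above, 3 of 5 of class II and 2 of 7 of class I had replicate 3 the highest and replicate 2 the lowest. Ifng itself was low, at 2.98, 1.46 and 2.71 TPM, with replicate 2 the lowest. Cxcl9 and Cxcl10, given above, belong to both the chemokine and this list.

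Besides these programmes, replicate 3 was high for the secreted carbonic anhydrase Car6 (2.15, 1.82 and 5.01 TPM), the C1q-like secreted protein C1qtnf3 (2.53, 1.51 and 5.33 TPM), the skin adhesion protein Cdsn (2.98, 2.44 and 5.71 TPM) and Il1r2, the decoy receptor for interleukin 1 (1.99, 2.66 and 5.55 TPM). It was low for the endothelial genes above and for Esm1, an endothelial proteoglycan, at 10.1, 15.5 and 4.96 TPM, for the imprinted gene Mest at 11.1, 7.68 and 3.75 TPM, and for Ccl17, a chemokine of dendritic cells, at 18.1, 19.6 and 8.74 TPM.

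**Figure D4:**
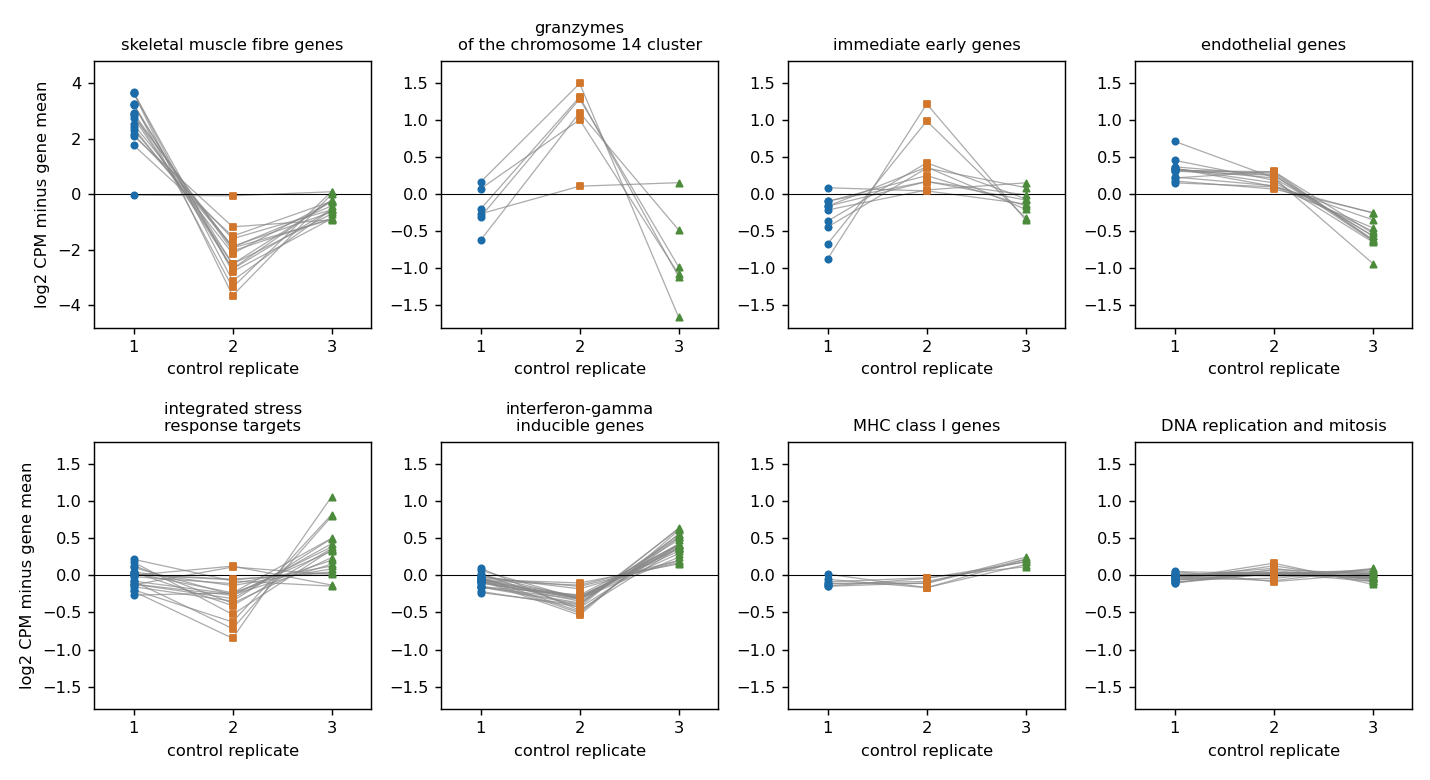
Log2 CPM of each gene in each control library minus the gene's mean over the 3, for 8 gene lists. Each grey line joins the values of 1 gene, lines join libraries only to show which belong together, genes are those kept by the filter on the mean count, and the muscle panel has a wider y axis than the rest. Muscle genes other than Eno3 are mostly high in replicate 1. The filter on counts kept 4 of them and the filter on the mean count 17, largely through that level, so their number is no result. Granzymes (all but Gzmb) and immediate early genes are mostly high in replicate 2, and endothelial genes are low in replicate 3. Stress response and interferon-gamma genes are mostly high in replicate 3, and division genes stay near 0 in all 3 libraries.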

How the data were processed

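RNA of the 3 control tumours was selected for poly(A), copied into dUTP-stranded libraries and read from both ends, per the labels' protocols. The submitters' processing notes name cutadapt 1.9, HISAT2 2.0.4, StringTie 1.3.4d and the build GRCm38.p6, with DESeq2 and edgeR without versions; the annotation, counting options and filters are not given in the sources used here. The estimated counts were deposited by the authors per gene without scaling, per the file headers, and 12.1% to 12.4% of the values in a library were not whole. Per the file headers, the authors also deposited TPM and FPKM, which take gene length and library size into account; FPKM served only as an alternative. The tables hold no mitochondrially encoded gene, so TPM are shares of nuclear gene transcripts.

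Entrez IDs were matched to RefSeq genes for 17820 genes, 26 symbols that had been turned into dates were restored, and coordinates and promoters are those of RefSeq on GRCm38.p6. Levels are TPM with the SD over 3 libraries. For variation, counts were rounded, kept with filterByExpr of edgeR 4.0.16 (R 4.3.3) at a minimum count of 10, which with 1 group asks for it in all 3 libraries, and at a mean of 1 TPM, and scaled with TMM. Log2 CPM had a prior count of 2, and the dispersion came from an intercept-only fit. The variation script was tested on simulated counts of 11519 genes with a coefficient of variation of 0.2. There it called 69% of genes changed 2-fold, all changed 4-fold and 5.24% of unchanged genes. The simulated spread was wider than the 0.0805 estimated from the control libraries, so these rates are not those of the reported genes. Nothing was tested between groups, and the other 9 libraries were not used.

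The members and lists were chosen with earlier results of these data known, and 4 of 41 lists were made after control values were seen. The naming rule took the 25 most abundant genes, up to 4 members a list by level, members under 0.1 TPM in all 3 libraries, members that varied 2-fold, and up to 8 genes per library and direction farthest from the nearer other library with at least 5 TPM in the highest; further genes were named after their values were seen. Transcript identities were computed with Biopython 1.88 on GENCODE transcripts. Alternatives covered scaling, filters, prior count, fold limit, unit and each library left out. A few genes that the rule names are not reported here or drawn.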

Additional observations from a re-analysis of the deposited data

How the results depend on the processing

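The number of genes that varied 2-fold depended on the filter and the limit. It was 178 as reported, 62 at a minimum count of 50, 402 with no filter, 61 at a mean of 5 TPM or more and 36 at a 3-fold limit. It stayed within 1.5 times of 178 with RLE scaling (183), total counts alone (187), a prior count of 0.5 (209) or 5 (143), TPM plus 0.1 (206) and, chosen after seeing the data, a filter on the mean count (238). With a library left out it ranged from 66 to 109, since 2 libraries span less than 3. It was 109 without replicate 1, 95 without replicate 2 and 66 without replicate 3. The common biological coefficient of variation was 8.05%, 8.96% with no filter, and from 7.23% to 9.21% with a library left out. The 10 most abundant genes by TPM held 4.53% of the counts, which are not scaled for length. Genes at a mean of 1 TPM or more numbered 12352, 12042 where each library had to reach 1 TPM, and 12289 to 12371 with a library left out. At a limit of 1 FPKM the count was 11786 and at 0.5 TPM it was 13079. Medians stand far below sums by construction: 0.04 TPM for colon epithelial genes, 0.0717 for general epithelial, 52.9 for mesenchymal, 47.2 for fibroblast, 8.54 for endothelial, 33.2 for macrophage and 4.12 for skeletal muscle genes. No paired analysis was possible because a single group was described and nothing was compared between groups. The 3 libraries limit each SD, and genes with few counts are known only roughly: a count of 0 over the group allows up to 0.0588 CPM.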

Other observations

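Among the varying genes outside the lists, picked here after their values were seen, several further genes known from blood vessels were lowest in replicate 3. Adgrl4, an adhesion receptor of endothelium, stood at 4.34, 3.58 and 1.49 TPM in replicates 1, 2 and 3. Mmrn2, a matrix protein of vessels, stood at 4.31, 3.06 and 1.76 TPM, Apold1 at 4.54, 4.52 and 1.75 TPM, Epas1, the factor HIF-2 alpha, at 4.7, 4.67 and 1.79 TPM and Podxl at 6.77, 5.75 and 3 TPM. Bcl6b, an endothelial repressor, was lowest in replicate 2 instead, at 3.82, 1.7 and 2.28 TPM. Varying genes known from macrophages shared no single order. F13a1, a clotting factor subunit, was highest in replicate 1, at 16.9, 12 and 7.15 TPM, as was Clec10a, a lectin, at 7.14, 4.8 and 3.04 TPM. Cd209c, a lectin, was highest in replicate 2, at 15, 19.3 and 8.86 TPM, as were Fcrls at 6.85, 10.6 and 3.81 TPM and the receptor Gpr34 at 3.56, 6.14 and 2.4 TPM. Il1b, the cytokine interleukin 1 beta, was highest in replicate 3, at 6.37, 4.86 and 9 TPM.

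Matrix genes varied in more than a single direction. Ctsk, a collagen-cutting cathepsin, stood at 5.57, 14.5 and 6.79 TPM, Col12a1 at 1.59, 4.35 and 1.97 TPM and Lrrc15, a protein of collagen-rich tumour stroma, at 1.42, 3.05 and 1.32 TPM, all highest in replicate 2. Cilp, a matrix protein, was lowest there at 29.9, 14.1 and 28.7 TPM, as Dpt, Thbs4 and Igfbp5 were.

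The deposited counts and TPM did not always move together. Unc45b, a myosin chaperone of muscle, varied 2-fold by counts, while its TPM stood at 1.33, 1.04 and 1.1. Birc5 was among the steadiest genes by counts, with 1804, 1837 and 1761, and stood at 205, 222 and 190.4 TPM. The genes LOC100044627 and LOC100862455 had identical values in all 3 libraries, at 2818, 2758 and 3097 TPM, with counts that were not whole.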
